A study of Mus musculus with 21 samples.

Results

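The immediate early genes Egr1, Egr2, Egr3, Egr4, Arc, Npas4, Nr4a1, Nr4a2 and Nr4a3 were examined in polyA RNA sequencing of 21 mouse libraries, 12 from Neuro2a cultures and 9 from sorted cortical nuclei. They were taken by gene symbol from the deposited tables of CPM, which are reads per feature scaled to the same total of 1000000 in every library. All 9 have a row among the 39008 features of the nuclei table. Of these, 8 have a row among the 31553 features of the Neuro2a table, and Egr4, which has none there, was not analysed in Neuro2a. After the filter on low values (at least 0.5 CPM in at least 3 nuclei or 6 Neuro2a libraries) 9 were tested in nuclei and 7 in Neuro2a, where Npas4 fell below the filter.

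These genes are transcribed within minutes of synaptic activity, calcium entry or growth factor signalling, without new protein synthesis, and their transcripts decay quickly. In cortical neurons they are driven by transcription factors such as CREB, SRF with its ternary complex partners, and MEF2, which calcium-dependent and MAP kinases activate. The Egr genes encode zinc finger transcription factors, Npas4 a bHLH-PAS factor that shapes inhibitory synapses, the Nr4a genes orphan nuclear receptors, and Arc a synaptic protein that promotes removal of AMPA receptors.

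The study addresses CRISPR activation of Scn2a, which encodes the sodium channel Nav1.2, in which a guide RNA brings a catalytically dead Cas9 fused to the activator VP64 (sadCas9-VP64) to a promoter. Neuro2a, a mouse neuroblastoma line, received guide and sadCas9-VP64 plasmids (CRISPRa, 750 ng of each, 6 cultures) or sadCas9-VP64 without a guide (VP64 only, 6 cultures, no amount labelled). No cultures with a guide to another target are labelled, so that action of the guide and carrying the guide plasmid cannot be told apart. Nuclei positive for NeuN, a neuronal nuclear protein, came from cortex of mice kept on a C57BL/6J background, in 3 groups of 3: wild type (WT), Scn2a+/- (Het), and Scn2a+/- given AAV-sadCas9-VP64 with rAAV-Scn2a-sgRNA (Het CRISPRa). The virus went into the medial prefrontal cortex 4 weeks before use, whereas nuclei came from 200 mg of cortex without a stated selection for transduced cells. No treatment is labelled for WT and Het, so that carrying the vectors and activation of Scn2a cannot be told apart. The labels do not say that replicates were separate cultures or animals, so p-values measure the spread between these libraries.

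By their library names the Neuro2a cultures fall into a set 7, with replicates 1 to 3 of each group, and a set 8, with replicates 4 to 6, called library sets here. The depth in M reads on features was 15.5 to 20.97 for the cultures and 15.5 to 20.1 for the nuclei. It and the read numbers given below were inferred, taking the most frequent CPM above 0 in a library as 1 read. The targeted gene Scn2a lay at 2.84 to 3.46 CPM in VP64 only and 4.09 to 5.33 CPM in CRISPRa cultures, and at 230 to 266 CPM in WT, 203 to 260 in Het and 258 to 291 in Het CRISPRa nuclei. The sadCas9-VP64 transcript differed between the library sets: in VP64 only cultures it lay at 2497 to 2646 CPM in set 7 and 318 to 370 CPM in set 8, and in CRISPRa cultures at 1683 to 2154 and 564 to 632 CPM. In nuclei both vector transcripts were found only in Het CRISPRa, sadCas9-VP64 at 4.09 to 7.12 CPM. The summed CPM of the cortical excitatory markers was 3344 to 3822 in nuclei, with all 9 detected. In Neuro2a all 6 sympathetic neuroblastoma markers were detected (642 to 909 CPM summed). Of the 9 cortical excitatory markers 6 were above 0 there (67.7 to 81.0 CPM summed), and Neurod6, Neurod2 and Fezf2 were at 0 or had no row.

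To show the sequence before the starts of members described here, RefSeq windows of 300 bases were read (250 before to 50 after a start, build GRCm38.p6), in which 6 of the 9 members matched by symbol: Egr2, Egr4, Npas4, Nr4a1, Nr4a2 and Nr4a3, and not Egr1, Egr3 and Arc. The motif TGACG or its reverse complement CGTCA, the core of the site CREB binds, was found in at least 1 window of each of these 6 members. Egr2 has 5 windows, of which 3 held it, and the others have 1 window each. Over all 32851 windows the share was 20.81% per window. The CArG box, the site SRF binds, was found in 4 of the 5 Egr2 windows, which overlap in part, and in none of the others, against 1.629% of all windows. The longer palindrome TGACGTCA was in none of the 6, against 1.79% of windows. Both strands were searched, and a match describes these letters and is not a bound site. The stretches, given 5′ to 3′ on the gene's strand, end before the first base of any exon in GENCODE vM21, and capitals mark that core on either strand and the CArG box. Egr2 (1 of its 5 windows, chr10:67537619-67537868, plus strand) and Nr4a1 (chr15:101266596-101266845, plus strand) were the members with a window that were called in the fit of all Neuro2a cultures together, Nr4a3 (chr4:48045055-48045152, plus strand) rose in 1 library set, and Egr4 (chr6:85513590-85513839, minus strand) had its lowest levels in Het CRISPRa nuclei.
Egr2: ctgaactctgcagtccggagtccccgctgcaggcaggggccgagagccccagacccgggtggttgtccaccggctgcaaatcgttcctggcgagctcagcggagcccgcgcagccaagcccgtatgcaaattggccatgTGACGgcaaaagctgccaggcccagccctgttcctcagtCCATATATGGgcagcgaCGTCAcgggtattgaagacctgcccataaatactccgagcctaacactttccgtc
Nr4a1: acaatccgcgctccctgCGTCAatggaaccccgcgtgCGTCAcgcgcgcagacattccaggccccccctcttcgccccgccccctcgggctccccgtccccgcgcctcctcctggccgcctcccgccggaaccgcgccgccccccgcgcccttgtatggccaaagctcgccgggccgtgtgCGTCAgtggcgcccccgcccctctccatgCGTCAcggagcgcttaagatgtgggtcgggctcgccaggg
Nr4a3: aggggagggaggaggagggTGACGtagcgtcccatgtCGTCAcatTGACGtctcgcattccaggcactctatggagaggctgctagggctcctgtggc
Egr4: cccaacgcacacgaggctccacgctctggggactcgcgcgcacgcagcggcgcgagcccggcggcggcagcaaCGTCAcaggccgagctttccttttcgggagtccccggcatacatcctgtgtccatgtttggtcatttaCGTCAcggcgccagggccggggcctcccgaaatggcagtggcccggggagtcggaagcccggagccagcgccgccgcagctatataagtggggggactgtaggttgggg
In Egr2 the CArG box began 72 bases before the start, between CRE cores that began 111 and 55 bases before it. In Nr4a1, 4 CRE cores began 233, 213, 69 and 40 bases before the start. The Nr4a3 stretch held 3 cores, 231, 213 and 205 bases before the start, and the Egr4 stretch 2, at 177 and 109.

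The levels of the members differed between genes and between the cell sources. Per length (mean CPM per kb of exon), Nr4a1 was the highest member in WT nuclei at 82.6, above 97.4% of protein-coding genes, followed by Arc at 47.9, Npas4 at 20.9, Egr1 at 18.5, Nr4a2 at 12.1, Egr3 at 10.9, Egr4 at 4.80, Nr4a3 at 2.38 and Egr2 at 1.64. In VP64 only Neuro2a cultures the order began with Egr1 at 35.0 CPM per kb, above 87.5% of protein-coding genes, and went on with Nr4a1 at 10.6, Arc at 5.89, Nr4a3 at 4.35, Nr4a2 at 2.43, Egr2 at 2.19 and Egr3 at 0.495. Some neighbours in these orders lie within the spread of their libraries: the CV between libraries was 13.2% for Npas4 and 10.4% for Egr1 in WT nuclei, and 24.9% for Nr4a2 and 47.7% for Egr2 in VP64 only cultures. The tables were normalized separately, and they come from sorted nuclei and from cell cultures. The summed CPM of nuclear retained RNAs was 51402 to 59806 in nuclei and 62.2 to 115 in Neuro2a. The levels are therefore set side by side with no test, and the cell type and the use of nuclei cannot be told apart.

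Npas4, which is known as selective for neurons, was abundant in nuclei and near 0 in Neuro2a. Its level was 55.6 to 85.7 CPM in the 9 nuclei libraries. In Neuro2a it was listed at 0 in all 6 libraries of set 7 and at 0 to 0.0597 CPM (VP64 only) and 0.0640 to 0.129 CPM (CRISPRa) in set 8, at most 2 reads a library. These values are under the floor of 3 reads, so no fold is given. A count of 0 allows up to 3 reads, for counting error only.

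In Neuro2a, guide plus sadCas9-VP64 was compared with sadCas9-VP64 alone. Over all 12 cultures 3 of the 7 tested members, Egr1, Egr2 and Nr4a1, were higher in CRISPRa and none was lower, where 15.0% of all 14398 genes were called and 10.0% were called higher. Their groups did not overlap, as for 5.74% of genes in that direction. The values are given by library set, since the change differed between the sets.

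**Figure D1:**
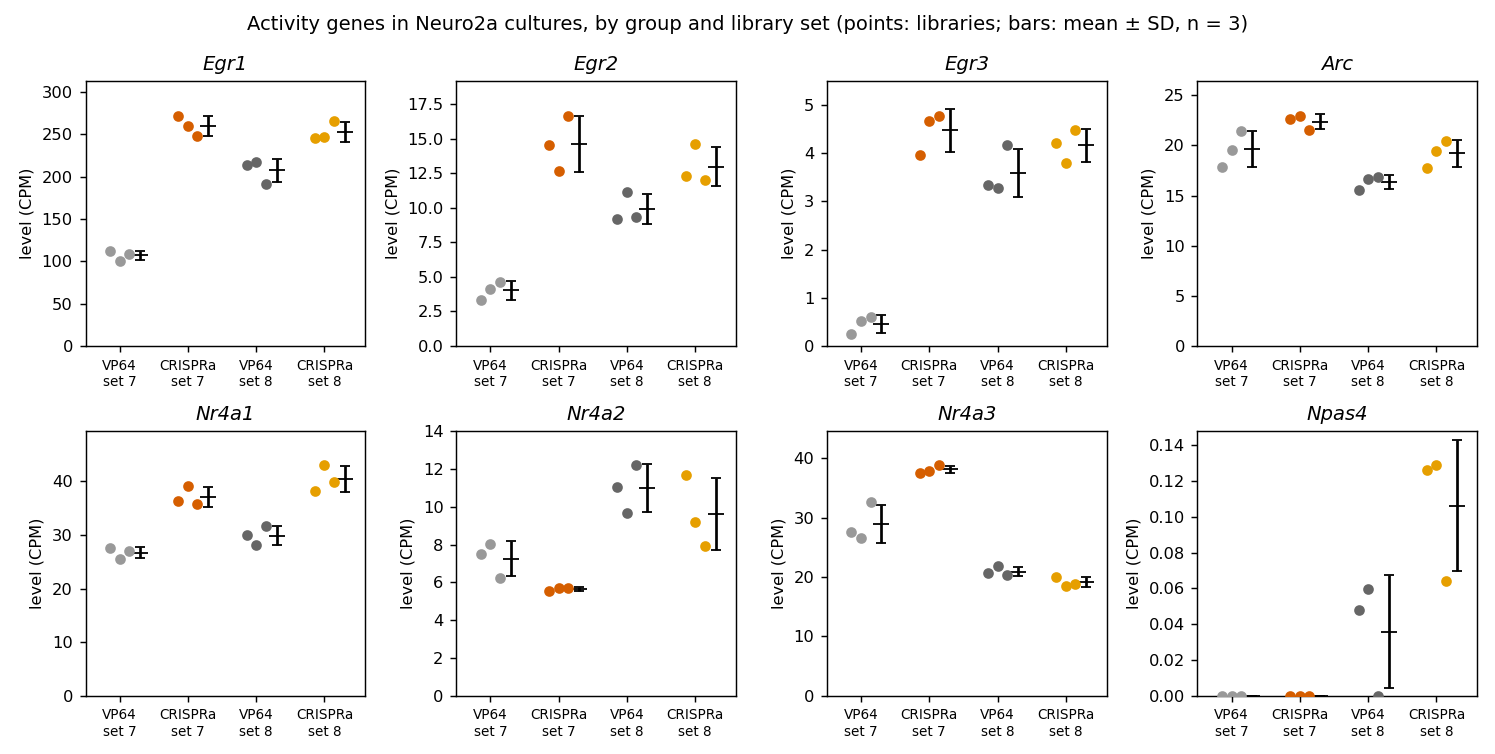
Level in CPM (vertical axes, linear from 0) of the 8 members with a row in the Neuro2a table, by group and library set. Points are libraries and bars the mean ± SD of 3; Egr1, Egr2 and Egr3 sit lowest in the VP64 only cultures of set 7, and Npas4 stays at or under 0.129 CPM.

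Egr1, the most abundant member in Neuro2a, lay at 112, 101 and 108 CPM in VP64 only and at 272, 260 and 247 CPM in CRISPRa cultures of set 7. In set 8 the values were 213, 217 and 192 CPM in VP64 only and 245, 247 and 266 CPM in CRISPRa. The 6 CRISPRa cultures thus lay close together in both sets, and the VP64 only cultures of set 7 were lower than all others. Egr1 rose in set 7 by 1.28 ± 0.05 (log2, SE, 2.43-fold in mean CPM, adjusted p = 6.79e-13, limma, with Benjamini-Hochberg adjustment across the genes tested). In set 8 it rose by 0.29 ± 0.05 (1.22-fold, adjusted p = 0.00044), and over all cultures by 0.78 ± 0.19 (adjusted p = 0.0147). The authors' deposited table gives 0.64 for the last (adjusted p = 0.0109).

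Egr2, known also for its part in Schwann cell myelination, followed the same layout at lower levels. In set 7 it lay at 3.31, 4.10 and 4.66 CPM in VP64 only and 14.5, 12.7 and 16.7 CPM in CRISPRa. In set 8 it lay at 9.20, 11.2 and 9.35 CPM against 12.3, 14.6 and 12.0 CPM. The groups did not overlap in either set, but the gap was narrower in set 8. The rise was 1.74 ± 0.14 in set 7 (3.63-fold, adjusted p = 3.68e-09). In set 8 the difference of 0.37 ± 0.14 missed the threshold (adjusted p = 0.0545) and passed it with the replicate number as a block (adjusted p = 0.041). Over all cultures Egr2 rose by 1.06 ± 0.26 (adjusted p = 0.0149).

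Egr3, a factor of the same family, was near the filter in the VP64 only cultures of set 7. It lay at 0.249, 0.527 and 0.605 CPM (4 to 10 reads) in VP64 only and 3.96, 4.68 and 4.78 CPM in CRISPRa cultures of set 7. In set 8 the values were 3.34, 3.28 and 4.17 CPM against 4.22, 3.80 and 4.48 CPM, and these overlapped. In set 7 Egr3 rose by 2.39 ± 0.19 on the log2(CPM + 0.5) scale, which understates the change of so low a gene (9.71-fold in mean CPM, adjusted p = 3.18e-09). In set 8 the difference was 0.19 with a 95% interval of -0.20 to 0.58 (adjusted p = 0.503). Over all cultures it was 1.29 ± 0.42 (adjusted p = 0.0566, in a fit without library set). It passed with library set as a covariate (adjusted p = 0.00312) and with the replicate block (adjusted p = 0.0194).

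Nr4a1, an orphan receptor that controls transcription without a known ligand, rose in both library sets. It lay at 27.5, 25.5 and 27.1 CPM without a guide and 36.3, 39.2 and 35.8 CPM with it in set 7, and at 29.95, 28.2 and 31.6 against 38.3, 43.0 and 39.9 CPM in set 8. The lowest CRISPRa culture was above the highest VP64 only culture across both sets. The rise was 0.46 ± 0.07 in set 7 (adjusted p = 1.43e-05), 0.43 ± 0.07 in set 8 (adjusted p = 0.000109) and 0.45 ± 0.07 over all cultures (1.37-fold, adjusted p = 0.00111). The difference between the 2 changes (set 8 less set 7) was -0.04, with a 95% interval of -0.24 to 0.17 (adjusted p = 0.824).

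Nr4a3, a receptor of the same family, rose in set 7 alone, and the difference between the sets is tested further on. It lay at 27.5, 26.5 and 32.6 CPM in VP64 only and 37.6, 37.9 and 38.8 CPM in CRISPRa cultures of set 7, but at 20.6, 21.8 and 20.3 against 20.02, 18.5 and 18.8 CPM in set 8. It rose by 0.40 ± 0.08 in set 7 (adjusted p = 0.000318), and the difference in set 8 was -0.13 ± 0.08 (adjusted p = 0.264). Over all cultures these gave 0.14 ± 0.22 (adjusted p = 0.719).

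Nr4a2, a factor of dopamine neurons, was higher in set 8 than in set 7 in both groups. It lay at 7.48, 8.03 and 6.23 CPM in VP64 only and 5.54, 5.70 and 5.72 CPM in CRISPRa cultures of set 7, and at 11.1, 9.68 and 12.2 against 11.7, 9.21 and 7.94 CPM in set 8. The difference was -0.33 ± 0.14 in set 7 (adjusted p = 0.0684, and -0.40 with adjusted p = 0.0261 under median-of-ratios scaling). It was -0.19 ± 0.14 in set 8 (adjusted p = 0.358) and -0.26 ± 0.20 over all cultures (adjusted p = 0.423).

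Arc, the only member that encodes no transcription factor, differed little. It lay at 17.8, 19.6 and 21.4 CPM in VP64 only and 22.6, 23.0 and 21.6 CPM in CRISPRa cultures of set 7, and at 15.6, 16.7 and 16.9 against 17.8, 19.4 and 20.5 CPM in set 8. Within each set the CRISPRa cultures were the higher, by 0.19 ± 0.09 in set 7 (adjusted p = 0.0832) and 0.22 ± 0.09 in set 8 (adjusted p = 0.0697), neither past the threshold. Over all cultures the difference of 0.21 ± 0.09 (adjusted p = 0.153) passed with library set as a covariate (adjusted p = 0.0158) and with the replicate block (adjusted p = 0.0389).

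Whether the change differed between the library sets was tested as an interaction. Of 7 tested members 4 had a lower change in set 8 than in set 7, where 21.8% of all genes were called and 12.3% were called lower. The difference was -2.20 ± 0.26 for Egr3 (adjusted p = 7.76e-06), -1.37 ± 0.20 for Egr2 (adjusted p = 5.33e-05), -0.99 ± 0.07 for Egr1 (adjusted p = 4.19e-08) and -0.53 ± 0.11 for Nr4a3 (adjusted p = 0.0021). For Arc it was 0.03 (adjusted p = 0.881) and for Nr4a2 0.13 (adjusted p = 0.69). Within set 7, 5 of 7 members were called, all higher (background 46.7%, of which higher 29.7%). Within set 8, 2 of 7 were called, both higher (background 24.8%, of which higher 14.4%).

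The sets were also compared within each group of cultures. Among VP64 only cultures Egr3 was higher in set 8 than in set 7 by 2.11 ± 0.19 (adjusted p = 1.75e-08), Egr2 by 1.21 ± 0.14 (adjusted p = 5.29e-07) and Egr1 by 0.95 ± 0.05 (adjusted p = 2.46e-11). Nr4a2 was also higher, by 0.57 ± 0.14 (adjusted p = 0.00267), Nr4a3 was lower (-0.45 ± 0.08, adjusted p = 8.73e-05) and Arc was lower (-0.25 ± 0.09, adjusted p = 0.0239), so that 6 of 7 members were called against 45.7% of all genes. Leaving out VP64 only replicate 2, 3 or 4 ended the call of Arc (adjusted p 0.0547 to 0.126). Among CRISPRa cultures the same difference between sets was -0.04 for Egr1 (95% interval -0.15 to 0.07), -0.16 for Egr2 (-0.45 to 0.13) and -0.09 for Egr3 (-0.48 to 0.30).

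Nr4a1 differed between the sets by 0.16 in VP64 only (adjusted p = 0.0658) and 0.12 in CRISPRa cultures (adjusted p = 0.145), and passed in both under median-of-ratios scaling (adjusted p = 0.0311 and 0.0191). In the CRISPRa cultures 3 of 7 members were called between the sets against 54.7% of all genes. Nr4a3 was lower in set 8 (-0.98 ± 0.08, adjusted p = 2.67e-09), Nr4a2 was higher (0.70 ± 0.14, adjusted p = 0.000318) and Arc was lower (-0.22 ± 0.09, adjusted p = 0.0416). That call of Arc was lost without the filter, under either other scaling, and without CRISPRa replicate 1, 2, 4 or 5 (adjusted p 0.0574 to 0.53). The sadCas9-VP64 transcript was 2497 to 2646 CPM in the VP64 only cultures where Egr1, Egr2 and Egr3 were lowest, and 318 to 370 CPM in those of set 8. In CRISPRa cultures it was 1683 to 2154 CPM in set 7 and 564 to 632 CPM in set 8, and none of these 3 genes was called between the sets there. The mCherry-puro transcript was at 0 without a guide and at 4626 to 5782 CPM (set 7) and 1574 to 1927 CPM (set 8) with it. The part of either transcript in the differences was not tested. The mitochondrially encoded share of reads was 0.816 to 1.03% in VP64 only and 1.09 to 1.47% in CRISPRa cultures, higher in every CRISPRa culture. The summed CPM of nuclear retained RNAs was 62.2 to 73.4 in VP64 only and 86.8 to 115 in CRISPRa cultures. The part of either in the members' differences was not tested.

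**Figure D2:**
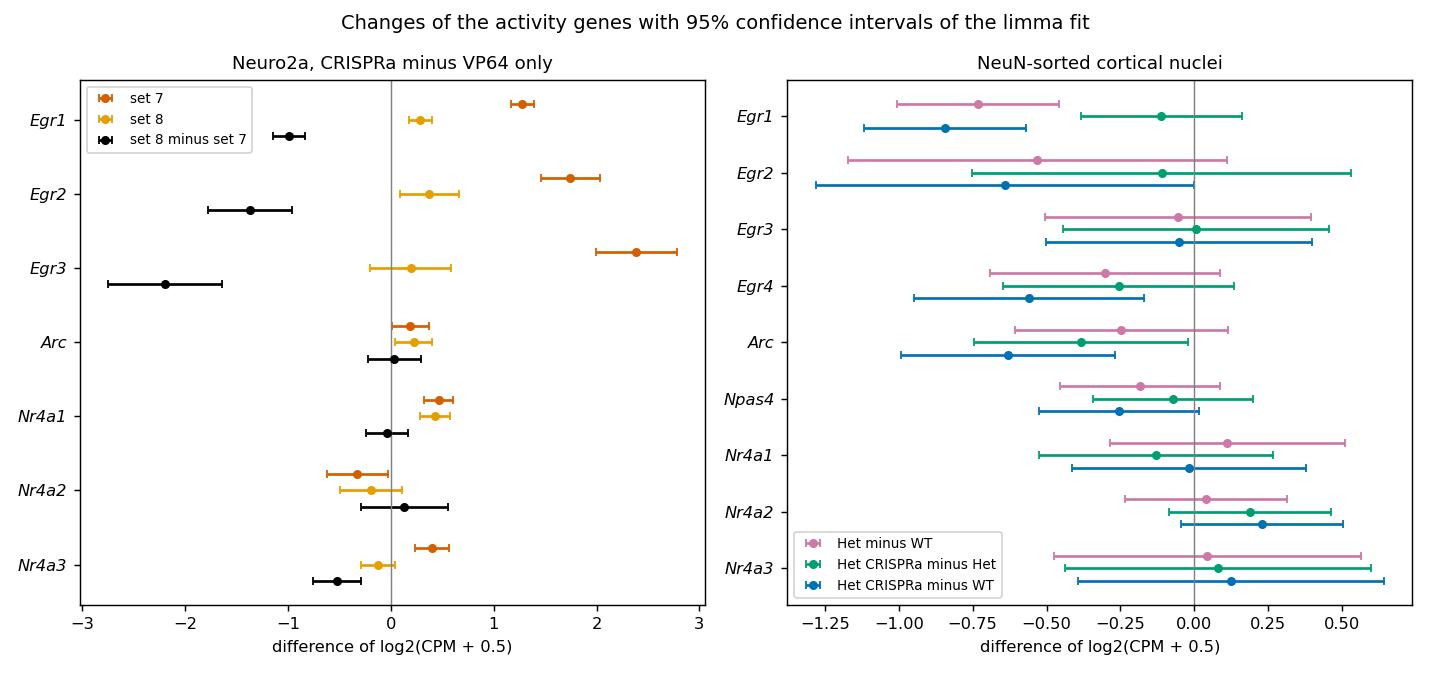
Differences of log2(CPM + 0.5) (horizontal axes) for each tested member with the 95% confidence interval of the limma fit. Left, CRISPRa minus VP64 only in library set 7, in set 8, and the difference between them, where Egr1, Egr2, Egr3 and Nr4a3 lie away from 0. Right, the 3 comparisons of cortical nuclei, where the intervals of Egr1 lie below 0 in Het minus WT and Het CRISPRa minus WT. Those of Egr2, Egr4 and Arc also lie below 0 in Het CRISPRa minus WT, and that of Arc in Het CRISPRa minus Het. No member was called in the nuclei.

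The genes around the members were read from 7 lists, with the median of all genes at 0.06 over all Neuro2a cultures. Of 9 tested AP-1 genes, whose products form the Fos and Jun dimers, 6 were called higher and none lower (median 0.56), among them Jun at 0.62 ± 0.07 (adjusted p = 0.000183) and Junb at 0.56 ± 0.07 (adjusted p = 0.000467). Of 21 other rapid immediate early genes 13 were called higher and none lower (median 0.48), with Klf6, a zinc finger factor, at 0.89 ± 0.05 (adjusted p = 4.03e-07) and Ccn1, a matricellular protein, at 1.24 ± 0.10 (adjusted p = 8.02e-06). These counts are to be read beside the 10.0% of all genes called higher. The lists were chosen with earlier results of these data known, so an excess over that share is a description and no independent support.

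The other lists had few calls. Of 12 delayed and late response genes 2 were called higher and 1 lower, with the neuropeptide precursor Vgf at 0.52 ± 0.13 (adjusted p = 0.0163) and the neurite outgrowth protein Nrn1 at -0.62 ± 0.12 (adjusted p = 0.00406). None of 5 partners and co-repressors was called. Of 6 Arc partners 1 was called lower (Wasf1, an actin regulator, -0.29 ± 0.07, adjusted p = 0.0115), of 16 upstream transcription factors and coactivators 1 was called higher (Mrtfa, an SRF coactivator, 0.23 ± 0.07, adjusted p = 0.0452), and of 16 upstream kinases and phosphatases 1 was called lower (Ppp3cb, a calcineurin subunit, -0.21 ± 0.05, adjusted p = 0.0119).

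The lists also differed by library set. In set 7, 8 of 9 AP-1 genes were called higher and none lower, and 17 of 21 other rapid genes higher and 2 lower, against 29.7% of all genes called higher. In set 8, 7 of 9 and 16 of 21 were called higher and none lower, against 14.4% of all genes. The 2 lower calls of set 7, named after their values were seen, were Trib1 (-0.50) and Ppp1r15a (-0.68). For 8 of the 21 rapid genes the change in set 8 was called lower than in set 7 and for 3 higher, Klf10, a zinc finger factor, with the smallest p (-1.44 ± 0.09, adjusted p = 4.24e-09), which rose by 1.76 ± 0.07 in set 7. Nab2, a co-repressor that binds Egr1 and is itself an Egr target, lay at 38.1 CPM with the guide against 19.2 CPM without it in set 7, and at 45.4 against 45.1 CPM in set 8. Its change was 0.97 ± 0.07 in set 7 (adjusted p = 4.89e-10) and 0.01 ± 0.07 in set 8 (adjusted p = 0.954), a difference of -0.96 ± 0.09 (adjusted p = 4.88e-07). Of the 5 tested partners and co-repressors Nab2 was the only 1 with a difference below 0, and 4 lay above 0 (median of the 5 0.08). A link of Nab2 to the Egr genes was not tested.

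**Figure D3:**
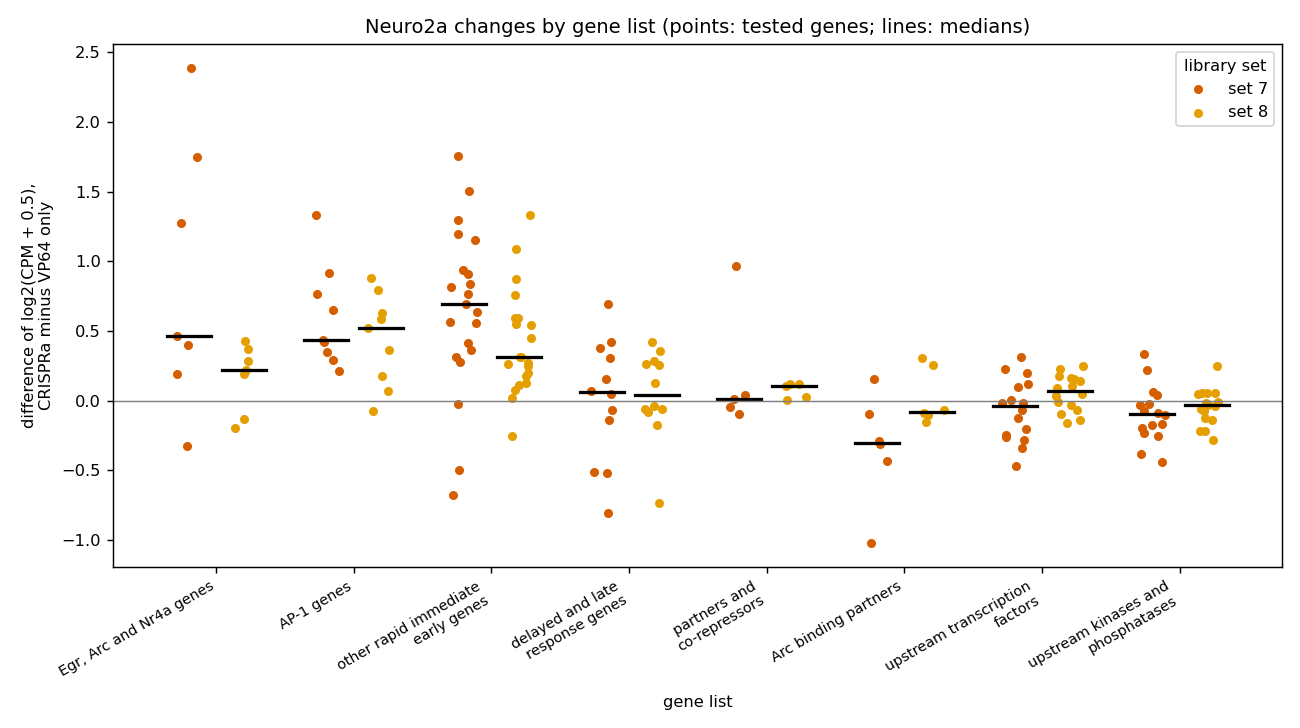
Differences of log2(CPM + 0.5) between CRISPRa and VP64 only cultures (vertical axis) for each tested gene of the members and the 7 lists, by library set. Points are genes and lines are medians; the AP-1 and other rapid immediate early genes lie mostly above 0 in both sets, and the members' points reach 2.39 in set 7 and 0.43 in set 8.

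In cortical nuclei Het was compared with WT to ask what loss of 1 Scn2a copy changed. Of the 9 members 0 were called, as of all 18967 genes (0%), and at an unadjusted p under 0.05 it was 1 of 9 members (limma) against 5.01% of genes. Egr1 was that member, at 90.4, 73.5 and 84.7 CPM in WT and 47.7, 44.4 and 57.5 CPM in Het. All 3 Het libraries lay below all 3 WT libraries, as also for Egr4, and 7.30% of all genes had this pattern. The difference for Egr1 was -0.73 ± 0.13 (0.601-fold in mean CPM), the 4th smallest p of all genes, with an adjusted p = 0.333 by limma with Benjamini-Hochberg adjustment. The authors' deposited table gives -0.68 with an adjusted p = 0.0217, among 15 genes under 0.05 there. In the same comparison 7 of 8 striatal markers lay below 0 and 1 above (median -0.64, all genes -0.05). Of 7 cortical inhibitory markers 6 lay below 0 and 1 above (median -0.25), and of 9 cortical excitatory markers 4 below and 5 above (median 0.01). The part of these markers' cell types in the Egr1 difference was not tested. In bulk nuclei, fewer cells of a type and less RNA per cell cannot be told apart.

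**Figure D4:**
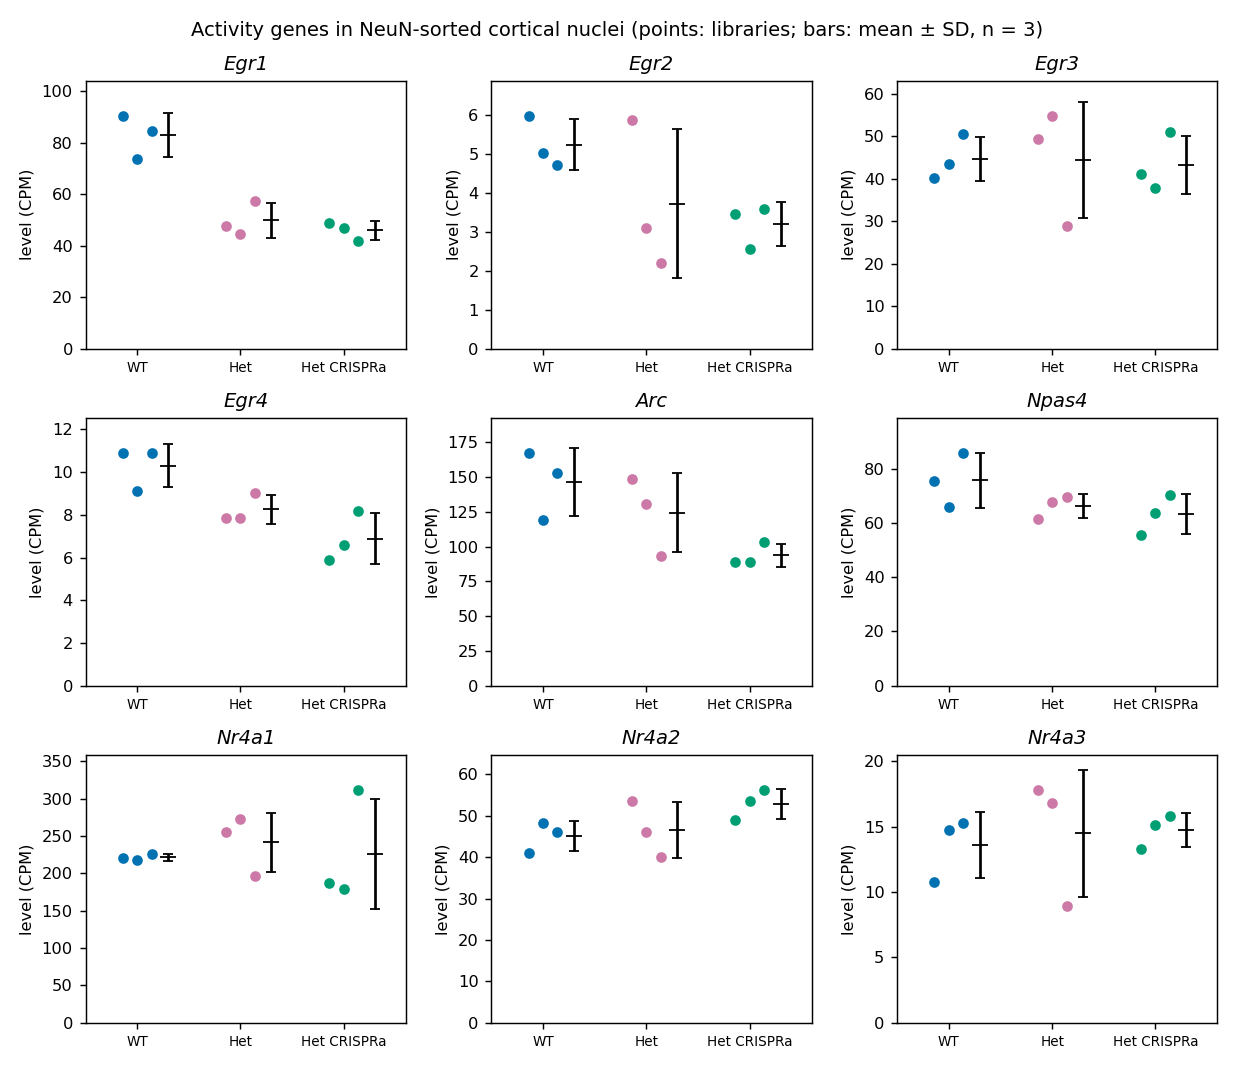
Level in CPM (vertical axes, linear from 0) of the 9 members in NeuN-sorted cortical nuclei by group. Points are libraries and bars the mean ± SD of 3; all Het and Het CRISPRa points of Egr1 lie under 58 CPM and all WT points above 73 CPM.

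Egr4, a zinc finger factor of the family, lay at 10.9, 9.14 and 10.9 CPM in WT and 7.87, 7.87 and 9.02 CPM in Het, a difference of -0.30 ± 0.18 (adjusted p = 0.875). Its CPM do not come out as whole reads (169.345 at the lowest in WT), unlike those of the other members. Egr2 lay at 5.96, 5.02 and 4.70 CPM in WT and 5.87, 3.09 and 2.19 CPM in Het (-0.53 ± 0.29, adjusted p = 0.875). Its groups overlapped, since Het replicate 1 was within the WT range. Egr3 lay at 40.1, 43.5 and 50.4 CPM in WT against 49.3, 54.7 and 28.9 CPM in Het, a difference of -0.06 with a 95% interval of -0.51 to 0.39 (adjusted p = 0.976).

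Arc lay at 167, 119 and 153 CPM in WT and 149, 131 and 93.5 CPM in Het (-0.25 ± 0.17, adjusted p = 0.875). Npas4 lay at 75.5, 65.7 and 85.7 CPM against 61.3, 67.7 and 69.5 CPM (-0.19 ± 0.12, adjusted p = 0.875). In both genes the groups overlapped, and the intervals included 0.

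The Nr4a genes gave differences near 0 between Het and WT. Nr4a1 lay at 221, 218 and 226 CPM in WT, with the tightest spread of any member (CV 1.92%), and at 256, 272 and 197 CPM in Het (0.11, 95% interval -0.28 to 0.51). Nr4a2 lay at 41.0, 48.2 and 46.1 CPM against 53.6, 46.1 and 40.04 CPM (0.04, -0.24 to 0.31). Nr4a3 lay at 10.7, 14.7 and 15.3 CPM against 17.8, 16.8 and 8.90 CPM (0.04, -0.47 to 0.56).

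Het replicate 3 stood apart within its group. It was the lowest Het library for Egr2, Egr3, Arc, Nr4a1, Nr4a2 and Nr4a3 and the highest for Egr1, Egr4 and Npas4. Its summed CPM of 8 striatal neuron markers was 947, against 253 and 571 in the other Het libraries, and its mitochondrially encoded share was 0.892%, against 1.88 and 1.41%. The part of either in the spread was not tested. Replicate 3 also had the highest striatal sum in WT (1122 CPM, against 437 and 460 in the others) and in Het CRISPRa (870 CPM, against 641 and 527). For Egr1 in Het minus WT, leaving out Het replicate 1, 2 or 3 gave -0.70, -0.65 and -0.84 (adjusted p = 0.702, 0.961 and 0.0772). For Arc it gave -0.39, -0.30 and -0.06, and for Egr2 -0.88, -0.46 and -0.25, none past the threshold. Leaving out WT replicate 1 or 2 gave -0.14 and -0.39 for Arc.

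The Het CRISPRa nuclei were compared with Het to ask whether the members moved when the vectors were given. Of 9 members 0 were called against 0.0422% of all genes (8 genes), and 1 of 9 had an unadjusted p under 0.05 (limma) against 5.25% of genes. Arc was that member, at 89.0, 88.7 and 103 CPM in Het CRISPRa against 149, 131 and 93.5 CPM in Het. The groups overlapped through Het replicate 3, and none of the 9 members was free of overlap, against 9.98% of genes that were. The difference was -0.38 ± 0.17 (unadjusted p = 0.0391, adjusted p = 0.81). Without Het replicate 3 it was -0.57 (adjusted p = 0.13) and without Het replicate 1 -0.24 (adjusted p = 1). In the same comparison 13 of 13 mitochondrially encoded mRNAs lay below 0 (median -0.77), with a share of reads of 0.733 to 0.830% in Het CRISPRa and 0.892 to 1.88% in Het. All 8 striatal markers lay above 0 (median 0.59), at 527 to 870 against 253 to 947 CPM summed. With the mitochondrial mRNA level as a covariate the Arc difference was -0.11 (adjusted p = 0.92), and with the striatal marker level -0.33 (adjusted p = 0.857). These covariates were added after seeing the data. The mitochondrial level did not overlap between the groups, so it and the group cannot be told apart in that fit. The part of either level in the Arc difference was not tested. Egr1 lay at 48.9, 46.9 and 42.0 CPM in Het CRISPRa, and the difference from Het was -0.11 with a 95% interval of -0.38 to 0.16 (adjusted p = 0.849).

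Egr4 differed from Het by -0.26, Egr2 by -0.11, Npas4 by -0.07, Egr3 by 0.01, Nr4a3 by 0.08 and Nr4a2 by 0.19, with adjusted p of 0.81 or more. Without Het CRISPRa replicate 1 the difference for Egr4 was -0.16. Nr4a1 was the most variable in Het CRISPRa, at 187, 180 and 311 CPM, where replicate 3 was above every other nuclei library. Its CV of 32.8% there stood beside 1.92% in WT. The difference from Het was -0.13 with a 95% interval of -0.53 to 0.27.

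The comparison of Het CRISPRa with WT shares its libraries with both others and is no independent support for them. Of 9 members 0 were called, against 0.00527% of genes, and 4 of 9 had an unadjusted p under 0.05 (limma), all lower, against 1.33% of genes. In 5 of 9 the groups did not overlap, Egr1, Egr2, Egr4 and Arc lower and Nr4a2 higher, against 7.13% of genes in either direction. An exact two-sided permutation test of 3 against 3 libraries cannot go below 0.1, which each of these 5 gave.

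Egr1 was lower in Het CRISPRa than in WT by 0.84 on the log2 scale (-0.84 ± 0.13, 0.554-fold), the 2nd smallest p of all genes, with an adjusted p = 0.176. The authors' deposited table gives -0.83 with an adjusted p = 8.23e-07. Arc, at 89.0 to 103 CPM against 119 to 167 CPM, differed by -0.63 ± 0.17 (0.640-fold, the 10th smallest p, adjusted p = 1 by limma), and by -0.62 with an adjusted p = 0.0434 in the authors' deposited table.

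Egr4, at 5.86, 6.59 and 8.19 CPM in Het CRISPRa, differed from WT by -0.56 ± 0.18 (unadjusted p = 0.00869 by limma). Egr2, at 3.45, 2.54 and 3.57 CPM, differed by -0.64 ± 0.29 (unadjusted p = 0.0496 by limma). Npas4, at 55.6, 63.7 and 70.2 CPM, overlapped with WT (-0.26 ± 0.12, and -0.17 without Het CRISPRa replicate 1 or -0.16 without WT replicate 3). Nr4a2, at 48.9, 53.5 and 56.2 CPM, was above the WT libraries by 0.23 ± 0.13. Egr3 at 41.1, 37.8 and 50.9 CPM and Nr4a3 at 13.3, 15.1 and 15.8 CPM lay within or across the WT range, with differences of -0.05 and 0.12, and Nr4a1 differed by -0.02. None of these passed the threshold (adjusted p = 1).

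The number of features above 0 was 28109 to 28272 in WT, 25410 to 25801 in Het and 26118 to 28228 in Het CRISPRa. It was lower in every Het library than in WT, while Het CRISPRa overlapped with WT. Since Het and WT did not overlap in that number, it and the genotype cannot be told apart there, also with a covariate. The part of that number in the Egr1 differences was not tested. With that number as a covariate, an alternative added after seeing the data, Egr1 differed from WT by -0.55 in Het (adjusted p = 0.999) and -0.79 in Het CRISPRa (adjusted p = 1). With the mitochondrial mRNA level or the striatal marker level as a covariate, also added after seeing the data, Egr1 passed in Het CRISPRa minus WT (-0.95, adjusted p = 0.0113, and -0.85, adjusted p = 0.0438). It did not pass in Het minus WT (adjusted p = 0.227 and 0.0739).

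None of the 7 lists had a called gene in any of the 3 nuclei comparisons. Fos, the AP-1 gene with the smallest p, was at 17.4 CPM in WT, 11.4 in Het and 10.3 in Het CRISPRa, differing from WT by -0.60 ± 0.18 in Het (unadjusted p = 0.00661, adjusted p = 0.875) and -0.73 ± 0.18 in Het CRISPRa (unadjusted p = 0.00174, adjusted p = 1). Dusp1, a MAP kinase phosphatase, was at 30.1, 25.0 and 20.8 CPM in these groups, and the calcineurin subunit Ppp3ca at 702, 829 and 598 CPM (Het CRISPRa minus Het -0.46 ± 0.13, adjusted p = 0.746). Of 17 upstream transcription factors and coactivators 15 lay below 0 in Het minus WT (median -0.13, all genes -0.05) and 17 above 0 in Het CRISPRa minus Het (median 0.16, all genes 0.04). These comparisons share the Het libraries, so the opposite signs are not independent.

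Across libraries the members did not form 1 block. Over the 9 nuclei libraries the Pearson correlation of log2 levels ranged from -0.62 (Egr1 with Nr4a2) to 0.88 (Egr4 with Npas4), and 27 of 36 pairs were above 0. Egr3 went with Nr4a3 (0.86) and Nr4a1 (0.74), and Egr2 with Arc (0.81). In Neuro2a the pairs of Egr1, Egr2 and Egr3 were at 0.96, and Nr4a2 ran against Arc (-0.89) and Nr4a3 (-0.88). These are descriptions over 9 libraries in 3 groups and over 12 in 4 cells of group and library set, so the groups and sets themselves enter the correlations.

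The genes most like the members' mean level were found the same way. In nuclei they were Dusp1 (r = 0.95), Homer3 (0.92), Arhgap27os1 (0.91), Phactr3 (0.89) and Grp (0.88), among 12159 genes over 9 libraries. Dusp1 ran from 18.7 to 31.5 CPM, highest in WT replicate 1 and lowest in Het CRISPRa replicate 2. In Neuro2a they were Nabp1 (0.98), Tgfb1 (0.98), Lif (0.97), Cbr3 (0.97) and Socs5 (0.97), among 10929 genes over 12 libraries, each lowest in a VP64 only culture of set 7.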

How the data were processed

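RNA was measured in 12 Neuro2a and 9 nuclei libraries. The deposited CPM tables hold the authors' reads per feature scaled to 1000000 per library, and the submitters' processing notes list STAR 2.7.8a, featureCounts, DESeq2 1.44 and the build mm39, with no role or order. The authors' deposited comparison tables hold log2 fold changes with standard errors, p-values and adjusted p-values, a Wald statistic (score) and a mean normalized signal per gene, per the file headers. Their model and filters are not given in the sources used here. The direction of each deposited table was taken as the one in which its fold changes correlated positively with those computed here, so the signs of the WT and Het table were turned.

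CPM were not whole reads for enough genes to allow a count test. Differences of log2(CPM + 0.5) were tested with limma 3.58.1 in R 4.3.3 (empirical Bayes with a trend), after a filter of 0.5 CPM in at least 6 Neuro2a or 3 nuclei libraries, leaving out the vector features, with Benjamini-Hochberg adjustment over all 14398 or 18967 genes tested and a threshold of 0.05. The 9 nuclei libraries entered a common fit. The fit of all Neuro2a cultures together had no library set term. Effects within library sets and their difference came from a fit with 4 means. Single-gene exact permutation tests were two-sided on mean CPM. Fits of this kind were also run on simulated counts, with the same setting of spread for all genes and no library set effect. That run checks the code and does not show how the fits perform on these data. Python 3.11.15 with pandas 2.3.3 was used for the rest.

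The replicate numbers in the labels were checked as pairs. In Neuro2a the deviations from group means of libraries with the same number correlated at 0.305 to 0.499. After library set means were also removed they correlated at -0.0708 to 0.0229, so the pairing follows the set. The reported Neuro2a fits did not take these libraries as pairs, and the number entered as a block only in an alternative. Values with the number as a block are given where a call changed.

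The members and the gene lists were chosen with earlier results of these data known, and the rule for naming genes takes every member tested. From each list up to 2 genes with the smallest p were named, and 5 genes by likeness (at least 2 CPM on average). Exon lengths came from GENCODE vM21. A floor of 3 reads was used for values at 0. Alternatives were pseudocounts of 0.1 and 1, no filter or 2 CPM, median-of-ratios and quantile scaling, no trend, the block, library set terms and leaving out each library. 3 covariates for nuclei were added after seeing the data.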

Additional observations from a re-analysis of the deposited data

Results flagged for a closer look

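For 4 members the change between CRISPRa and VP64 only Neuro2a cultures differed between library set 8 and library set 7, by a test of the difference itself (limma, Benjamini-Hochberg adjustment). The change in set 8 minus the change in set 7, on the log2 scale, was -0.99 for Egr1, -1.37 for Egr2, -2.20 for Egr3 and -0.53 for Nr4a3. The 8 members of the Neuro2a table were each examined in the 2 groups of 6 cultures for a library far from the others, 16 cases in all, and 0 were found. Each group of 6 pools library sets 7 and 8. Where a member differs between these, that gap widens the range, and 1 far library could hardly be found. The rate by chance, about 1 in 20, holds only without such a gap, so no conclusion is drawn from the 0. Groups of 3, and so all nuclei groups, were not examined in this way.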

How the results depend on the processing

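Of 1165 repeats of a single member's test under another setting, 1131 kept their side of the threshold, of which 1084 kept their sign and 47, none of them called, turned it, 24 passed where the reported test did not, 10 no longer passed. The 10 were all Arc between the library sets. In Neuro2a CRISPRa minus VP64 only, 3 members were called, and 5 with the replicate block, 5 in a fit with a library set term and 5 from set 7 only, the cause not tested. Leaving out each library gave 3 to 4 there (Egr3 was gained without VP64 only replicate 4, 5 or 6), 4 to 4 for the difference between sets, 5 to 7 within set 7, 2 to 3 within set 8, 5 to 7 between sets in VP64 only and 2 to 3 in CRISPRa cultures, and 0 to 0 in the nuclei comparisons. In Het CRISPRa minus WT 1 member, Egr1, passed with the mitochondrial mRNA level and 1, again Egr1, with the striatal marker level as a covariate, against 0; the cause was not tested.

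Over all genes the Neuro2a comparison called 2166 (1443 higher and 723 lower), 4513 with the block, 5685 with the set covariate, 6603 in set 7 and 3505 in set 8 alone, and median-of-ratios scaling gave 1059 higher and 1101 lower. Het CRISPRa minus Het called 8 genes, and 0 to 38 over the alternatives. Nuclei libraries with the same replicate number correlated at -0.11 to 0.418 after group means were removed. WT with Het gave 0.337 for replicate 1, 0.034 for replicate 2 and 0.418 for replicate 3, so some shared structure there is possible. They were not taken as pairs in the reported fits, and the block called 0 members. With 3 libraries a group, exact tests cannot go below 0.1, and Egr3 in VP64 only set 7 rests on 4 to 10 reads.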
